A study of Mus musculus with 4 samples.

Results

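The open chromatin of control melanoblasts was described from the 2 of 4 ATAC-seq libraries that carried a control hairpin, over all 70436 peaks of the deposited table. ATAC-seq uses a transposase that inserts sequencing adapters where DNA is not covered by nucleosomes, so the number of tags in a peak measures how open that site was. Both libraries came from melb-a cells, a mouse melanoblast line labelled as wild type, infected with lentivirus and selected with puromycin. Control 1 carried a hairpin against luciferase and control 2 a scrambled hairpin. Both were given virus for 16 hours, with 8 µg/ml polybrene and 1 µg/ml puromycin used in the procedure. Both were grown in 10% serum with 10 ng/ml stem cell factor (the ligand of Kit) and 40 pM Fgf2. The study's other libraries carried hairpins against Hira. They are not compared here, but the peak set was called once for the whole study, so a site is listed whether or not the control cells supplied it. The cells are a cultured line under growth factors and antibiotic selection, which limits them as a model of melanoblasts in the embryo.

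Control 1 held 20716859.5 tags in peaks with a median of 126 per peak, and control 2 held 15804532 tags with a median of 96. The hairpin libraries against Hira held 14718721 and 8910983 tags. With a tag as the counted unit, the controls differed by less than the sampling noise: their chi-square per peak was 0.933 over 69911 peaks, against 6.24 for the pair of Hira hairpins. The deposited values run in steps of 0.5 for a reason not given, and with each step as the unit the chi-square was 1.87 for the controls, above sampling noise, against 12.5 for the Hira pair. An exact binomial test of control 1 against control 2 called 0 of 69933 peaks (0%) at a Benjamini-Hochberg adjusted p under 0.05. At an unadjusted p under 0.05 it gave 2489 peaks (3.56%), and edgeR's exact test without dispersion called 0 (2453 unadjusted). With each step of 0.5 as the unit the binomial test called 717 peaks (9938 unadjusted). The control libraries were counted as 1 sample, and no spread between cultures can be given. Whether they were separate cultures or 1 library under 2 labels cannot be told from these values, so agreement of the 2 values given for a site does not show that a second culture would agree. Values below are tags per 1000000 tags in peaks (CPM), for control 1, control 2 and their mean, and intervals are exact 95% Poisson intervals on the pooled tags, which take a tag as the unit and cover counting error only. CPM grows with the width of a peak, so genes and classes are compared also per kb of peak. A single tag was worth 0.0483 CPM in control 1 and 0.0633 CPM in control 2.

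Melanoblasts are the neural crest-derived precursors of pigment cells. The transcription factors Pax3 and Sox10 act upstream of Mitf, the master regulator of the lineage, and the receptor tyrosine kinase Kit is needed for their survival and migration. Mitf binds E-boxes and drives the genes of melanin synthesis, among them Tyr, Tyrp1 and Dct. Promoters of widely used genes are typically rich in CpG and open in most cell types, whereas distal enhancers are open in fewer cell types.

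Promoter sequences of pigment genes are shown first, because they hold letters of the E-box, the motif of Mitf, while their openness differed. They are RefSeq windows of build GRCm38.p6, running from 250 bases before the start site to 50 after it, in the direction of transcription. Capitals mark CATGTG or CACGTG on either strand. The windows are Dct (chr14:118052197-118052496, minus strand), Mc1r (chr8:123406832-123407131, plus strand), Tyrp1 (chr4:80833963-80834262, plus strand) and Tyr (chr7:87493463-87493762, minus strand).
Dct: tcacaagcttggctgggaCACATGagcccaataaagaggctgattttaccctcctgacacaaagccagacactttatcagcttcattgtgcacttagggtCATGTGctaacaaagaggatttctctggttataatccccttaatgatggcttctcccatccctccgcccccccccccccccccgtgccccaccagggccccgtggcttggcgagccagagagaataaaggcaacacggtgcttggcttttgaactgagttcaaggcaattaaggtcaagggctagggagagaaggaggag
Mc1r: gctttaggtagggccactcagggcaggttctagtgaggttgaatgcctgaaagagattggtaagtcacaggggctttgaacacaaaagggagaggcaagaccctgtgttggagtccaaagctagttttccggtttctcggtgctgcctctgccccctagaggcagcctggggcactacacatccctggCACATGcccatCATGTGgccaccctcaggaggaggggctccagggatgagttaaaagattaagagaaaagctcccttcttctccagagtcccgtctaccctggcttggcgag
Tyrp1: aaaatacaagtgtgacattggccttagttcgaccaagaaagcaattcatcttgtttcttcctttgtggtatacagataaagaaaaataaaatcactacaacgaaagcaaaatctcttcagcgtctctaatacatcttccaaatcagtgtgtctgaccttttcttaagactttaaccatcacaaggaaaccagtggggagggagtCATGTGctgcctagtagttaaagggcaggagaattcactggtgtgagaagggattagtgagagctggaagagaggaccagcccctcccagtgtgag
Tyr: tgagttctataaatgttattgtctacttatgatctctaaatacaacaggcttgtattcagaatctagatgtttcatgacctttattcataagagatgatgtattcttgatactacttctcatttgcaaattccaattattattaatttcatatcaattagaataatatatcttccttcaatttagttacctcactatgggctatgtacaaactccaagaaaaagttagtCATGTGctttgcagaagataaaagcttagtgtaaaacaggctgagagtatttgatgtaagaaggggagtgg
The Dct and Mc1r windows each held CATGTG 2 times, counting both strands, and the Tyrp1 and Tyr windows held it 1 time. Tyr and Tyrp1 shared the 11-base run AGTCATGTGCT, which also occurred in the C1qb window and in no other of 21263 protein-coding windows. With Dct the shared run was GTCATGTGCT, found in 23 windows (0.108%). Both runs were picked as the longest shared by these same windows, so their counts do not test for a common element. CATGTG was present in 7 of 19 pigment and melanosome genes with a window, against 2316 of 17492 protein-coding genes (13.2%). The 7 were Dct, Hps1, Mc1r, Oca2, Slc24a5, Tyr and Tyrp1. CACGTG, the other E-box searched, was in 6 of the 19 genes and in 8.91% of all genes. These matches describe letters in a window and do not show binding.

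The peaks over these 4 windows spanned a wide range. The Mc1r peak had 66.7 and 60.4 CPM in controls 1 and 2, with a mean of 63.6. Mc1r encodes the melanocortin receptor that switches pigment type. The Dct peak had 43.2 and 39.8 CPM (mean 41.5, 95% interval 39.7 to 43.9). Dct encodes dopachrome tautomerase, an early marker of the lineage. The Tyrp1 peak had 11.5 and 12.1 CPM, and the Tyr peak 1.67 and 1.71 CPM (mean 1.69). Tyr encodes tyrosinase, the enzyme of the first step towards melanin, and its start-site peak was the lowest of the 21 pigment genes that had one. Per kb of peak the order was the same, at 51.8 CPM per kb for Mc1r, 42.0 for Dct, 15.4 for Tyrp1 and 5.46 for Tyr. The GC content of the 4 windows was 55.0% for Mc1r, 53.3% for Dct, 42.3% for Tyrp1 and 31.0% for Tyr, and the Tyr window held no CG. Whether GC content has a part in this order was not tested.

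Mitf has several start sites along its gene, and in melanocytes the most downstream one, the M promoter, is known as the lineage-specific one. Its 3 RefSeq windows are printed in order along the plus strand of chromosome 6, because they differed in openness and in sequence: chr6:97806808-97807107, chr6:97929567-97929866 and chr6:97991533-97991832. Capitals mark the GC box GGGCGG, the TATA box TATAAA and the cAMP response element TGACGTCA, each on either strand.
Mitf upstream: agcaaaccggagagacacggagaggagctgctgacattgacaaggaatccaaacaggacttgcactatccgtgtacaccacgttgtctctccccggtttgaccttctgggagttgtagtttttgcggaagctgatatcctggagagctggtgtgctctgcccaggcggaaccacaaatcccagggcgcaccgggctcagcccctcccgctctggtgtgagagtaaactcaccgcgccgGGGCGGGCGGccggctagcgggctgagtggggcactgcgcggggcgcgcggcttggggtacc
Mitf middle: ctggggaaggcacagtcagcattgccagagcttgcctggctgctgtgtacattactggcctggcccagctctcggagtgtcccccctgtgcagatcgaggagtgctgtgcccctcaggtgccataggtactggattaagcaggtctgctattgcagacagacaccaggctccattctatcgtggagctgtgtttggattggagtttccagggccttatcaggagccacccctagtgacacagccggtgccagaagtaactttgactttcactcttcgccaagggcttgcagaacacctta
Mitf downstream: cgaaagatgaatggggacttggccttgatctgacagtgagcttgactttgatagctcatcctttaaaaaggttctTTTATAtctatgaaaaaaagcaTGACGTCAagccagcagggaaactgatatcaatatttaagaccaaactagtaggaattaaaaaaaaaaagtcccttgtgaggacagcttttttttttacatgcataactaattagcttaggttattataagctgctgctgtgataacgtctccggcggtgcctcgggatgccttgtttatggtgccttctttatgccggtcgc
The upstream window held GGGCGG 2 times, overlapping each other, and 22 CG, at 62.7% GC. The downstream window held TATAAA 1 time, on the opposite strand, and the palindrome TGACGTCA 1 time, with 8 CG and 40.0% GC. Among all protein-coding windows GGGCGG was in 46.2%, TATAAA in 12.6% and TGACGTCA in 2.23%. The peak over the upstream window had 52.3 and 48.6 CPM (mean 50.5, 95% interval 48.4 to 53.1). The peak over the downstream window (chr6:97991347-97992008) had 8.45 and 8.79 CPM (mean 8.62). The middle window had no peak. The upstream start site was thus the more open one, also per kb of peak (49.8 against 13.0 CPM per kb).

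The strongest Mitf peaks lay away from its start sites. An intronic peak 10.1 kb upstream of the downstream start site (chr6:97981275-97982176) had 106 and 109 CPM, or 119 CPM per kb. An intergenic peak 55.1 kb beyond the same start site (chr6:98046440-98047304) had 77.3 and 75.6 CPM. Together 37 peaks were assigned to Mitf, of which 18 lay above the median of all peaks (6.06 CPM) and 5 lay in the most open 10% of peaks. Its 31 distal peaks, those more than 10 kb from the nearest start site, summed to 476 and 474 CPM in the control libraries. By that sum Mitf ranked 7 of 11994 genes with a distal peak, while the median gene had 14.9 CPM. A gene in a wide intergenic space collects more peaks by the nearest-gene rule, and no sum was corrected for that.

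**Figure D1:**
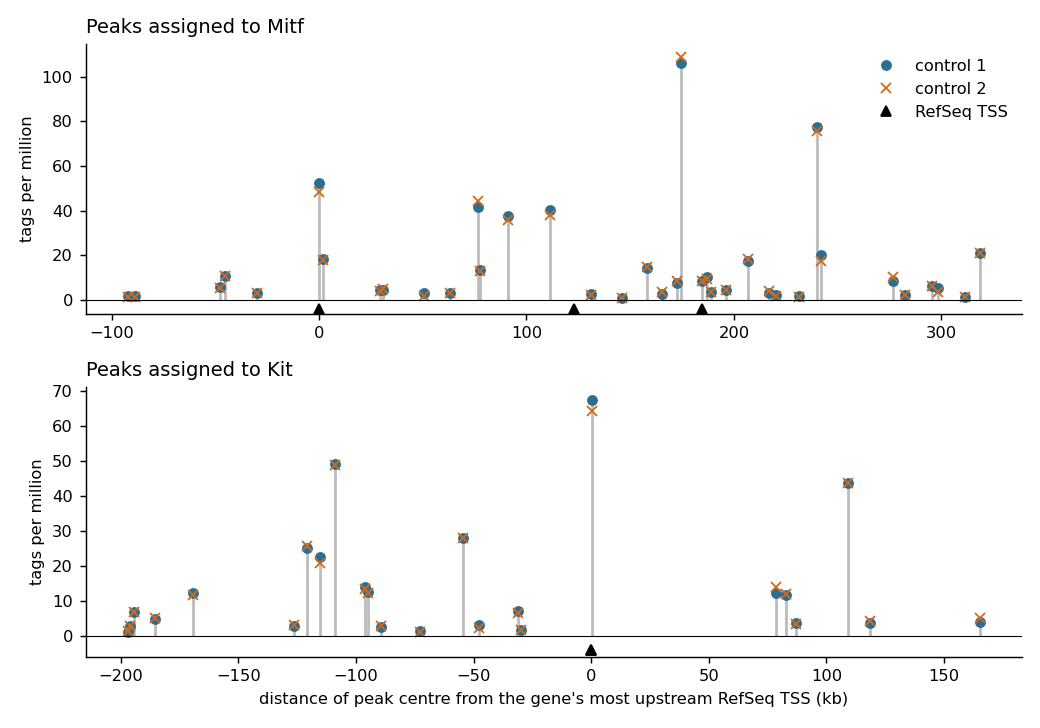
Peaks assigned to Mitf (upper panel) and Kit (lower panel) by the distance of the peak centre from the gene's most upstream RefSeq start site, in kb. Circles are control 1 and crosses control 2, in CPM, and triangles mark RefSeq start sites; the highest Mitf peak is the intronic one at 106 and 109 CPM, and the highest Kit peak is the one at its start site at 67.5 and 64.3 CPM.

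Kit showed the opposite layout by CPM, though not per kb of peak. Its start-site peak, annotated as intronic and centred 459 bases past the start (chr5:75574734-75576167), was its strongest, with 67.5 and 64.3 CPM (mean 65.9, 95% interval 63.5 to 68.8). Of its 24 peaks 23 were distal and summed to 276 and 276 CPM, which placed Kit at rank 77. The 2 strongest distal sites lay 109 kb before the start site (49.2 and 48.7 CPM) and 109 kb after it (43.6 and 43.6 CPM). The plot of both loci shows these flanking sites above their neighbours. The one before the start lay beside peaks with means of 25.4 and 21.7 CPM. Per kb of peak the site before the start stood above the start-site peak, at 61.1 against 46.0 CPM per kb.

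Pax3, a paired-box factor that marks the early lineage, had a promoter peak (chr1:78196449-78198134) of 56.4 and 55.0 CPM. By CPM it was the strongest of the 18 Pax3 peaks. The next strongest Pax3 peak was an intronic site 7.40 kb past the start with 35.5 and 35.4 CPM. Per kb of peak the Pax3 promoter had 33.0 CPM per kb. Distal sites 139 kb and 128 kb past the start were higher, at 41.2 and 34.8 CPM per kb. Sox10, the neural crest factor required for the whole melanocyte lineage, had 3 peaks. Its promoter peak (chr15:79164240-79164952) had 22.9 and 24.0 CPM, and an intronic peak 1.61 kb past the start (chr15:79162120-79163642) was higher, at 39.1 and 38.5 CPM. Per kb of peak the order turned, with 32.9 CPM per kb at the promoter and 25.5 at the intronic site, so the higher CPM went with a wider peak. Dct had 5 peaks, the highest at its promoter, with further sites 18.3 kb (22.1 and 23.8 CPM) and 37.3 kb (36.8 and 33.9 CPM) upstream.

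All 5 marker genes of the label (Mitf, Sox10, Pax3, Kit and Dct) therefore had an open start site, between 23.4 and 65.9 CPM. Of 11 melanoblast markers in all, 10 had a RefSeq window or an assigned peak and 8 had a start-site peak. No such peak was found for Ednrb or, by assigned peaks alone, for Mlana, and Pmel, with neither a window nor an assigned peak, was not assessed. Ednrb, the endothelin receptor of migrating melanoblasts, had 3 distal peaks, the highest 54.8 kb upstream with 48.92 and 45.97 CPM. Mlana, a melanosome protein, had 1 distal peak with a mean of 1.85 CPM. At Tyr, a site 14.8 kb upstream (chr7:87507959-87508579) had 24.3 and 27.2 CPM, far above the 1.67 and 1.71 CPM at its start site. A like pair stood at Tyrp1, where a site 14.4 kb upstream (chr4:80819479-80820178) had 36.0 and 33.9 CPM, against 11.5 and 12.1 CPM at its start site. Erbb3, the neuregulin receptor of neural crest and glia, had 39.7 and 39.1 CPM in an intronic peak 1.36 kb past the start, and 23.8 and 26.9 CPM at its promoter.

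Lists of genes were then compared by their start-site peaks, the highest peak within 1 kb of the start or over a RefSeq promoter window. By this rule 9382 of 17492 protein-coding genes (53.6%) had one, with a median of 35.8 CPM and 31.7 CPM per kb. Among 17 genes of melanoblast specification and survival, 15 had a start-site peak, with a median of 37.4 CPM and 32.2 CPM per kb. Sox5, which modulates Sox10, led with 86.3 and 84.0 CPM, and also per kb (51.5 CPM per kb, beside 49.8 for Mitf). Snai2 (53.8 and 54.3 CPM) and Tfap2a (53.1 and 50.7 CPM), both neural crest transcription factors, stood close to Pax3. The lowest were Foxd3 (5.41 and 5.41 CPM), Tfap2b (4.80 and 3.80 CPM) and Sox9 (1.59 and 2.09 CPM). Foxd3 and Sox9 are factors of neural crest progenitors, and Tfap2b is a relative of Tfap2a.

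Of 24 genes of pigment synthesis and the melanosome, 23 had a window or an assigned peak and 21 had a start-site peak, with a median of 34.3 CPM and 29.6 CPM per kb. Gpnmb, a melanosomal glycoprotein, had the highest at 97.1 and 94.6 CPM. Hps1, a subunit of a complex for making lysosome-related organelles, followed with 68.1 and 67.9 CPM. Per kb of peak Hps1 was first of the list (62.8 CPM per kb) and Gpnmb lower (40.8 CPM per kb). Slc45a2, a melanosomal transporter, had 55.6 and 52.6 CPM. Rab38, which carries cargo to melanosomes, had 45.49 and 44.96 CPM. Below these, Slc24a5, a melanosomal cation exchanger, had 16.0 and 16.0 CPM, and only Tyrp1 and Tyr were lower. Oca2, a melanosomal anion channel, had 7 peaks but none at its start site.

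Neural crest progenitor genes divided widely, with 14 of 18 open and a median of 43.6 CPM (34.0 CPM per kb). Id2, an inhibitor of differentiation, had 139 and 136 CPM and 131 CPM per kb. Id3 had 86.8 and 85.5 CPM, Mycn 68.6 and 71.7 CPM, and Id1 64.2 and 64.4 CPM. Rxrg, Msx1 and Sox9 lay below 4 CPM in both libraries, while Twist1, Msx2, Sox8 and Nr2f2 had no start-site peak. Nr2f2 nevertheless had 25 peaks elsewhere, Twist1 had 6 and Sox8 had 4, whereas Msx2 had none assigned.

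Of 20 growth factor receptors 14 were open, with a median of 34.9 CPM and 27.2 CPM per kb. The insulin-like growth factor receptor Igf1r led at 97.6 and 94.3 CPM in a wide peak (32.6 CPM per kb). Tgfbr1, a receptor for TGF-beta, had 68.3 and 67.7 CPM and was first per kb, at 52.5 CPM per kb. Fgf2 was a supplement of the medium. Of the FGF receptors, Fgfr1 had 29.8 and 33.0 CPM, Fgfr3 27.8 and 27.0 CPM and Fgfr2 17.2 and 15.6 CPM. Pdgfra, a receptor of mesenchymal cells, had 52.2 and 50.1 CPM. Egfr had no peak assigned and none over its RefSeq window, and Fgfr4, Ednrb, Pdgfrb, Ntrk3 and Ngfr had peaks but none at the start site. Among AP-1 and TEAD factors 14 of 16 were open, with a median of 35.4 CPM and 37.4 CPM per kb. Jun, a core AP-1 subunit, had 178 and 180 CPM, Tead4, a partner of Yap1, 91.0 and 94.0 CPM, and Fosl2 86.2 and 89.8 CPM, whereas Fosl1 had 3.91 and 4.46 CPM. Per kb of peak Tead4 and Jun were close, at 70.2 and 69.4 CPM per kb.

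Constitutive genes were open in 26 of 26 cases, with a median of 51.2 CPM and 42.4 CPM per kb. Of 24 cell cycle genes 22 were open, with a median of 50.1 CPM and 39.9 CPM per kb. Gapdh, a glycolytic enzyme, had 182 and 182 CPM, and Vcp, a protein-unfolding ATPase, 147 and 147 CPM. Mcm7, a subunit of the replicative helicase, had 171 and 173 CPM. These 3 were close per kb, at 93.3, 99.2 and 107 CPM per kb. The inhibitors Cdkn1b (80.8 and 77.4 CPM), Cdkn1a (72.5 and 70.5 CPM) and Cdkn2a (62.1 and 62.7 CPM) had open start sites too. Ccnd1, a G1 cyclin, had 13.3 and 11.1 CPM at its start site but 40.6 CPM per kb, since that peak was narrow. Ribosomal protein genes were open in 73 of 78 cases and ran from 11.0 CPM (Rps4x) to 107 CPM (Rps12), with a median of 34.5 CPM and 32.1 CPM per kb. Thus the 2 lineage lists had medians close to that of all open genes on both scales, below those of constitutive and cell cycle genes.

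Markers of other cell types were mostly without a start-site peak, except those of glia. None of 7 pluripotent and germ cell genes or 6 liver genes had one, nor had any of the 8 keratinocyte genes, of 10 listed, that had a RefSeq window or an assigned peak. Of 10 blood genes 1 was open, the macrophage gene Cd68 (7.75 and 7.97 CPM), and of 6 muscle genes 1, Ckm (4.05 and 4.33 CPM). Of 8 endothelial genes 3 were open with at most 4.78 CPM (Kdr), and 3 of 10 neuronal genes, 9 of them with a window or an assigned peak, with at most 14.0 CPM (Tubb3). Fibroblast genes were open in 3 of 10 cases, of which Pdgfra was the only one above 10 CPM. By contrast 10 of 10 Schwann cell and glia genes had a start-site peak, with a median of 17.0 CPM and 25.2 CPM per kb, both lower than those of all open genes. Egr2, a transcription factor of myelinating Schwann cells, had 36.6 and 38.3 CPM. S100b, which pigment cells also express, had 27.4 and 28.9 CPM, while Gfap, an intermediate filament of glia, had 3.35 and 3.95 CPM. Of 39 HOX genes 32 had a window or an assigned peak and 8 were open, at most at 23.7 CPM (Hoxa3). Of 1110 olfactory receptor genes 952 had a window or an assigned peak and 4 were open, the highest being Olfr159 at 22.9 and 20.7 CPM.

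**Figure D2:**
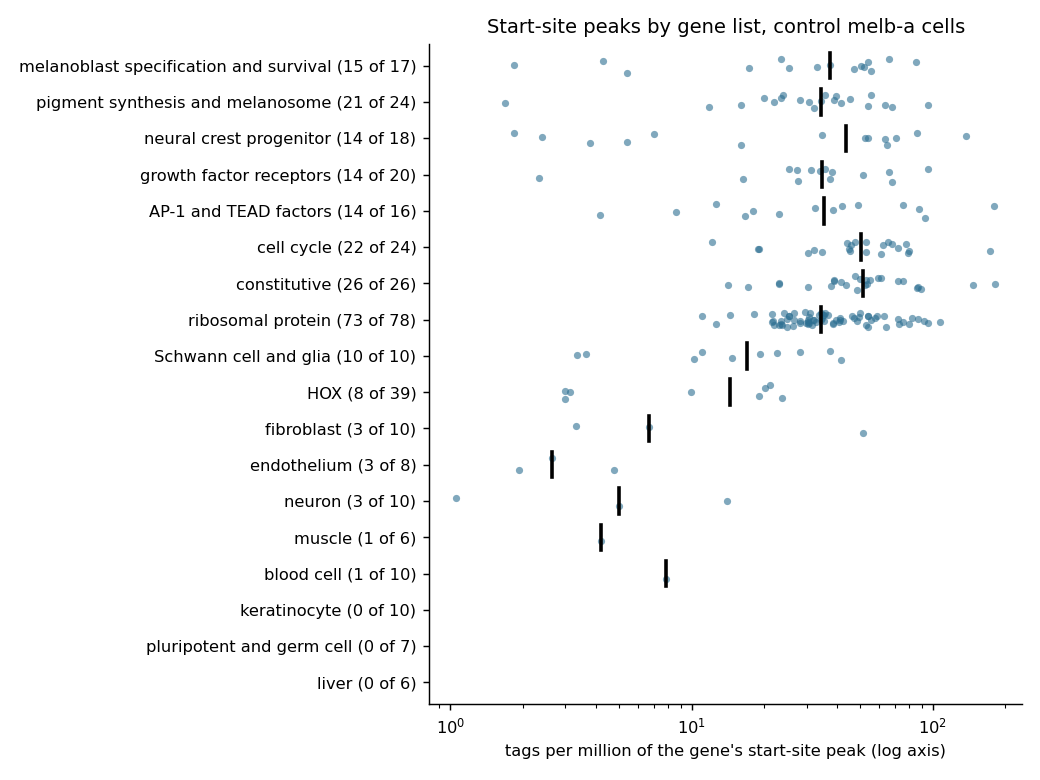
Start-site peaks by gene list, each point 1 gene, in mean CPM on a log axis, with the median as a bar and the number of listed genes with such a peak in parentheses. The constitutive and cell cycle lists have the highest medians (51.2 and 50.1 CPM), the melanoblast list lies at 37.4 CPM, and the keratinocyte, germ cell and liver lists have no point.

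Over all peaks the openness was uneven. The mean CPM ran from 0.112 to 275 with a median of 6.06, and 2185 peaks (3.10%) lay under 1 CPM. The most open 10% of peaks, 7044 peaks at 38.3 CPM or more, held 44.4% of the CPM, and the least open 50% held 10.6%. Promoter peaks, as the authors' annotation classes them, were 7588 peaks (10.8%) but held 29.2% of control tags. They supplied 44.1% of the most open 10%, against 25.0% from introns and 16.4% from intergenic sites. Their median was 31.9 CPM in control 1 and 31.9 CPM in control 2, against 4.56 and 4.56 CPM for distal peaks. The ratio of the medians was 7.02, and 3.05 per kb of peak, since the median promoter peak was 992 bp wide and the median distal peak 497 bp.

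The 5′ UTR class was as open as promoters, with a median of 32.5 CPM. Peaks in coding exons had a median of 15.3 CPM and peaks in exons of non-coding transcripts 12.02 CPM. Transcript ends (6.10 CPM), introns (5.36 CPM), 3′ UTRs (4.90 CPM) and intergenic sites (4.75 CPM) were close to each other. First introns stood above later introns, with 7.42 against 4.64 CPM, and 14.1 against 10.5 CPM per kb. Peaks close to the start site were not taken out of the first introns. Peaks annotated to a CpG island outside promoters had a median of 27.9 CPM, near that of promoters, over 1767 sites.

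**Figure D3:**
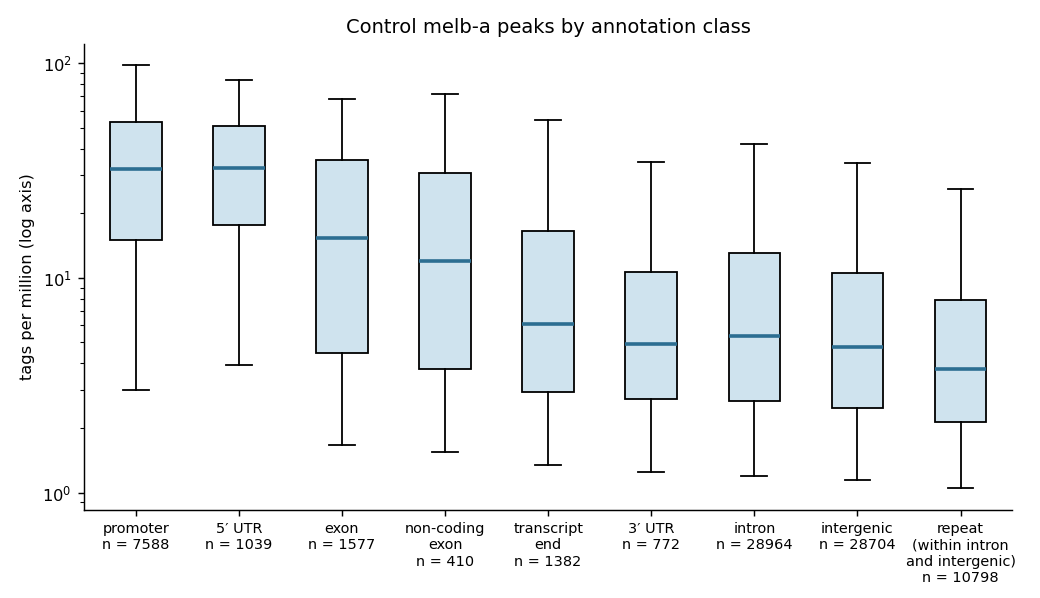
Mean CPM of control peaks by annotation class on a log axis. Boxes span the quartiles with the median as a line, whiskers reach the 5th and 95th percentiles, and n is the number of peaks; promoters and 5′ UTRs have medians of 31.9 and 32.5 CPM, and the other classes plotted lie between 15.3 and 3.75 CPM.

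Openness dropped within the first few kb on both sides of the start site. The median was 33.6 CPM for centres up to 300 bases upstream and 32.3 CPM up to 300 bases downstream. From 300 bases to 1 kb it was 20.4 CPM upstream and 19.9 CPM downstream, and from 1 to 3 kb it was 6.86 and 7.46 CPM. Beyond 100 kb the medians were 3.84 CPM upstream and 3.96 CPM downstream. The 2 sides were thus nearly mirror images in these libraries.

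**Figure D4:**
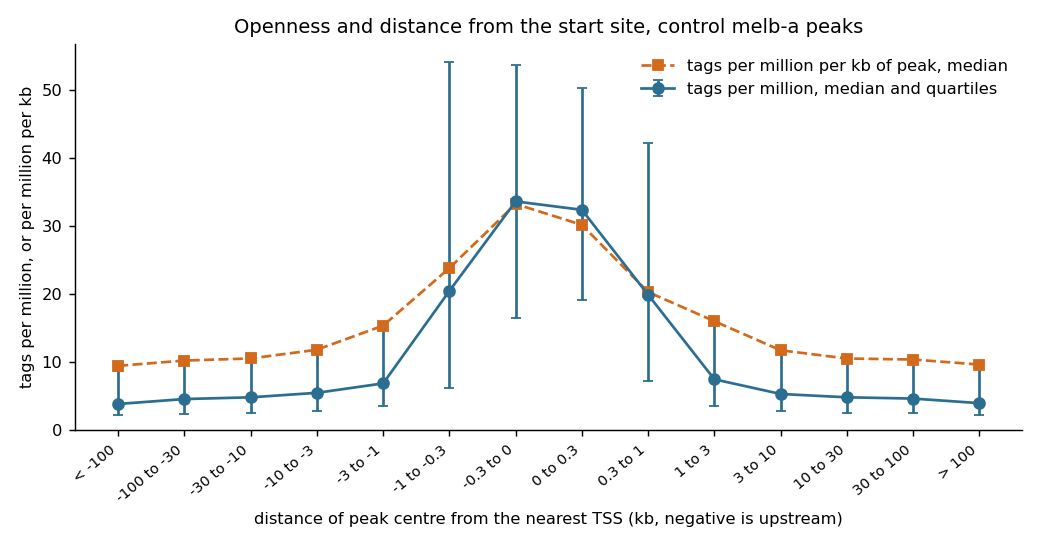
Median CPM of control peaks by the distance of their centre from the nearest start site, in kb, with quartiles as bars (circles) and median CPM per kb of peak (squares). Both measures peak next to the start site, at 33.6 CPM and 33.2 CPM per kb in the 300 bases upstream, and level off beyond 10 kb.

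The most open promoter peaks of protein-coding genes, 1 peak per gene, were compared next. Cited2, which encodes a co-regulator that binds CBP and p300, had the highest value of all 70436 peaks, 277 and 273 CPM (mean 275, 95% interval 270 to 281; chr10:17721679-17723661). Usp5, a deubiquitinase, had 263 and 275 CPM. Sp1, the transcription factor that binds the GC box, had 232 and 235 CPM (chr15:102405270-102406327). They were followed by Bclaf1 (224 and 238 CPM), Srgap2 (209 and 202 CPM), Alyref2 (201 and 202 CPM), Fmc1 (197 and 206 CPM), Hivep2 (202 and 199 CPM) and Fbrs (200.3 and 201 CPM). Gsk3b (202 and 199 CPM), Tarbp2 (201 and 197 CPM) and Abhd11 (194 and 198 CPM) completed the first 12 protein-coding genes. Peaks at promoters of non-coding RNAs, which reached 229 CPM, were not ranked here. Gsk3b encodes the kinase that marks beta-catenin for degradation, and Tarbp2 a partner of Dicer. Differences among the genes from Alyref2 to Tarbp2 were within their counting intervals.

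Ranking by CPM per kb of peak gave a different set, with only Sp1 in both groups of 12. Sp1 had 221 CPM per kb, Khsrp, an RNA-binding protein, 218 CPM per kb, and Ifngr1, the receptor chain for interferon gamma, 178 CPM per kb. The others, between 174 and 151 CPM per kb, were Rab40c, Ubxn6, Gna12, Osbp, Mrps16, Hbp1, Uba3, Shoc2 and Gtpbp1. Uba3 illustrates the difference of scales, with 64.9 and 68.7 CPM in a peak of 438 bp and hence 153 CPM per kb.

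The least open promoter peaks of protein-coding genes with tags in both libraries were those of Dusp27 (0.217 and 0.443 CPM; 4.5 and 7 tags), Ankrd1 (0.241 and 0.633 CPM) and Pparg (0.652 and 0.380 CPM). Ankrd1 is a muscle ankyrin repeat protein, and Pparg the nuclear receptor of fat cells. The next protein-coding genes were Crygs, a lens crystallin, Il15, a cytokine, Omd, Cyp2t4, Guca2a, Akr1cl, Pcdhb18, Smim3 and Epor, the erythropoietin receptor, all between 0.522 and 0.753 CPM. At these depths the intervals overlap: 0.160 to 0.556 CPM for Dusp27 and 0.487 to 1.08 CPM for Epor. Their order could not be resolved.

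Sequences of 4 windows show what lay at the extremes. Cited2 (chr10:17722978-17723277, plus strand) and Sp1 (chr15:102406066-102406365, plus strand) were among the most open, Ankrd1 (chr19:36119795-36120094, minus strand) was among the least open, and the keratin gene Krt5 (chr15:101712856-101713155, minus strand) had no peak. Capitals mark the GC box GGGCGG, the CCAAT box and the TATA box TATAAA on either strand.
Cited2: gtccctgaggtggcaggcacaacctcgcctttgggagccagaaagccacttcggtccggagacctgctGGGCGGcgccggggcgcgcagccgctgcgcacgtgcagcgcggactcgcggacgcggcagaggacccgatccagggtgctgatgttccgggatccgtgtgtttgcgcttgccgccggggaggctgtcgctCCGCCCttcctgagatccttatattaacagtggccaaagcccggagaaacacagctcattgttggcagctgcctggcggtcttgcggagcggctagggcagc
Sp1: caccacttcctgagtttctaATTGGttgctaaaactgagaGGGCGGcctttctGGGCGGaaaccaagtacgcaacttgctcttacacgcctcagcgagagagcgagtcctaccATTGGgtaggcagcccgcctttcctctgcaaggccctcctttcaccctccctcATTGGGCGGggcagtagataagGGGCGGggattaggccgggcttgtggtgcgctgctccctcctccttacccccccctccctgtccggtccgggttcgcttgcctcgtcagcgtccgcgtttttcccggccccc
Ankrd1: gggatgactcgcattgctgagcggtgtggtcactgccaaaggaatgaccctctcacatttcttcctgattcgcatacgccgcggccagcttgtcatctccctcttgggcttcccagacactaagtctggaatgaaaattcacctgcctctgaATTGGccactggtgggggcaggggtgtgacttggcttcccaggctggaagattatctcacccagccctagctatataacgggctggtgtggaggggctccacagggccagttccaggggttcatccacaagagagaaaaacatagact
Krt5: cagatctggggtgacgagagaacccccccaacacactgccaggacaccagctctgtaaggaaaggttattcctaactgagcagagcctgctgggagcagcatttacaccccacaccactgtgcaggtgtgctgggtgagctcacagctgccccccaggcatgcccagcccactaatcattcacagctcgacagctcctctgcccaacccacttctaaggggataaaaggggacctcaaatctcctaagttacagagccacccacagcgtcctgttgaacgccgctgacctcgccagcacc
The Sp1 window held GGGCGG 4 times and CCAAT 3 times, with one of each overlapping, and 19 CG. The Cited2 window held GGGCGG 2 times and 29 CG, at 66.7% GC. The Ankrd1 window held CCAAT 1 time and 7 CG, and the Krt5 window held none of the 3 motifs and 6 CG.

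Across all RefSeq windows, those of protein-coding genes overlapped a peak in 10458 of 21263 cases (49.2%), and those of long non-coding RNAs in 1977 of 11588 (17.1%). The median peak over them had 36.8 and 25.8 CPM. Protein-coding windows with a peak had a median GC content of 62.0% and an observed over expected CpG ratio of 0.794, against 50.0% and 0.256 without one. When the windows were ordered by that CpG ratio and divided into 5 equal groups, 6.75% of the lowest group had a peak, and then 18.6%, 55.3%, 79.3% and 86.1%. The median CPM of those with a peak was 11.3, 18.6, 34.8, 40.2 and 40.1 in the same order. Openness thus levelled off above the middle group, while the share with a peak still increased. Of 1499 genes with start sites more than 1 kb apart, 757 (50.5%), like Mitf, had a peak at some but not all of them, 225 at all and 517 at none.

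Motif letters in the windows were set beside openness, on both strands. GGGCGG was present in 67.9% of windows with a peak and 25.2% of those without. Among the most open 10% of windows with a peak (1047 windows at 83.0 CPM or more) it was in 75.4%. CCAAT was in 39.3% of windows with a peak and 37.1% of those without, but in 54.0% of those most open windows. TATAAA was in 5.88% of windows with a peak and 19.1% of those without. The ETS motif CCGGAAG was in 11.6% of all windows, 20.3% of those with a peak and 3.13% of those without. AAGATGGCG, the motif of YY1, was in 390 windows, of which 94.4% had a peak. GCGCATGCG, the motif of NRF1, was in 500 windows, of which 89.2% had a peak. Both motifs contain CG, and the share with a peak over all protein-coding windows was 49.2%. Among CpG-rich windows alone, 7030 with a peak and 1475 without, the GC box shares came closer, at 76.1% and 74.2%. The ETS shares stayed apart there, at 23.8% and 6.64%, as did those of YY1 (4.44% and 0.271%) and NRF1 (5.49% and 1.63%). CCAAT was in 37.5% of CpG-rich windows with a peak and 27.9% without. TATAAA was in 4.86% and 7.19% of them, closer than among all windows. The Mitf-type E-box CATGTG was less frequent with a peak than without (7.50% and 15.4%), but at 5.89% and 5.76% nearly equal among CpG-rich windows. CACGTG, which contains a CG, was in 10.4% of windows with a peak and 5.36% of those without, and in 11.5% and 12.5% of the CpG-rich ones. AP-1 (TGANTCA; 4.43% and 9.47%) and SOX (AACAAAG; 3.50% and 6.47%) letters were less frequent in windows with a peak. Among CpG-rich windows AP-1 letters were in 3.02% with a peak and 4.34% without, and SOX letters in 2.59% and 2.51%.

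Distal sites reached the level of strong promoters in a small number of cases. Of 44274 distal peaks 1645 (3.72%) lay in the most open 10%, and 76 exceeded 100 CPM, against 356 of 7588 promoter peaks. The most open was intronic in Anxa11, a calcium-binding annexin, 11.5 kb past its start (chr14:25852884-25854338), with 216 and 229 CPM. It was followed by sites 65.0 kb from Zfp958 (198 and 197 CPM), 23.3 kb from Ap5z1 (181 and 182 CPM), 26.8 kb from Akap7 (176 and 172 CPM) and 136 kb upstream of Mycn (174 and 174 CPM; chr12:13076619-13078309). The site assigned to Olfr1423 (174 and 171 CPM) lay 25.8 kb from a receptor gene that had no start-site peak. Slc6a6, a taurine transporter (159 and 166 CPM), Parp16 (160 and 162 CPM), Zfp239 (151 and 153 CPM) and Cd9, a tetraspanin (151 and 151 CPM), also had such sites. Whether unannotated promoters lie under any of them was not tested.

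Summed over distal peaks, the predicted gene Gm20125 stood first with 585 and 591 CPM in 56 peaks. Irf2bp2 (513 and 520 CPM), Eya4 (494 and 502 CPM), Mycn (480 and 488 CPM) and Zfp608 (482 and 470 CPM) were among the others ahead of Mitf. Foxk1, Tns3, Cited2, Med13l and Ahi1 followed it, from 462 to 439 CPM in the mean. Cited2 and Mycn were thus high at both the promoter and distal sites, with Mycn at 68.6 and 71.7 CPM at its start. Among other lineage genes Pax3 ranked 470 with 144 and 147 CPM, Tyrp1 556 with 136 and 135 CPM, Ednrb 1211, Dct 1670, Tyr 4329 and Erbb3 5857.

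Peaks in repeats were less open than other peaks outside genes and in introns. The 10798 intron and intergenic peaks annotated to a repeat had a median of 3.79 and 3.76 CPM, against 4.83 and 4.81 CPM for 34362 distal peaks outside repeats and CpG islands. The ratio of the medians was 0.778, and 0.907 per kb of peak, because repeat peaks were narrower (median 441 bp against 511 bp). Only 239 repeat peaks (2.21%) lay in the most open 10%. Reads from near-identical copies can map to several places, and how such reads were treated is unknown here, so low values in young families are uncertain.

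By class, tRNA genes had the highest median, 13.1 CPM over 31 peaks, followed by low-complexity sequence (6.70 CPM), repeats of unknown class (6.57 CPM over 26 peaks) and simple repeats (5.61 CPM). DNA transposons (4.32 CPM), LINEs (3.73 CPM), LTR elements (3.66 CPM) and SINEs (3.57 CPM) lay below. Per kb of peak the tRNA class stayed highest, at 20.7 CPM per kb, and low-complexity sequence had 10.4. Simple repeats (9.80 CPM per kb), LINEs (9.73), DNA transposons (9.66) and LTR elements (9.62) were nearly equal, with SINEs at 9.19. Among 18 families with at least 50 peaks, low complexity (6.98 and 6.80 CPM), ID (6.11 and 6.20 CPM), simple repeats (5.79 and 5.57 CPM), MIR (5.09 and 5.06 CPM) and Alu, which in mouse comprises B1 (4.80 and 4.84 CPM), were highest. The lowest were B2 (2.90 and 2.88 CPM), the group named Other (3.14 and 3.16 CPM), ERVK (3.33 and 3.29 CPM), ERV1 (3.69 and 3.61 CPM) and CR1 (3.56 and 3.65 CPM). SINE families thus stood at both ends. Of B2 peaks 0.480% lay in the most open 10%, and of MIR peaks 5.88%. Per kb of peak the families were closer, from 12.7 CPM per kb for ID to 8.57 for B2, 8.52 for CR1 and 8.22 for Other. B2 elements are mobile copies of a tRNA-derived sequence, and ERVK includes the intracisternal A particles. Among subfamilies with at least 20 peaks, MLT1F1, an old LTR element, had the highest median, 12.4 CPM over 24 peaks, and MTA_Mm the lowest, 1.73 CPM over 21 peaks.

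**Figure D5:**
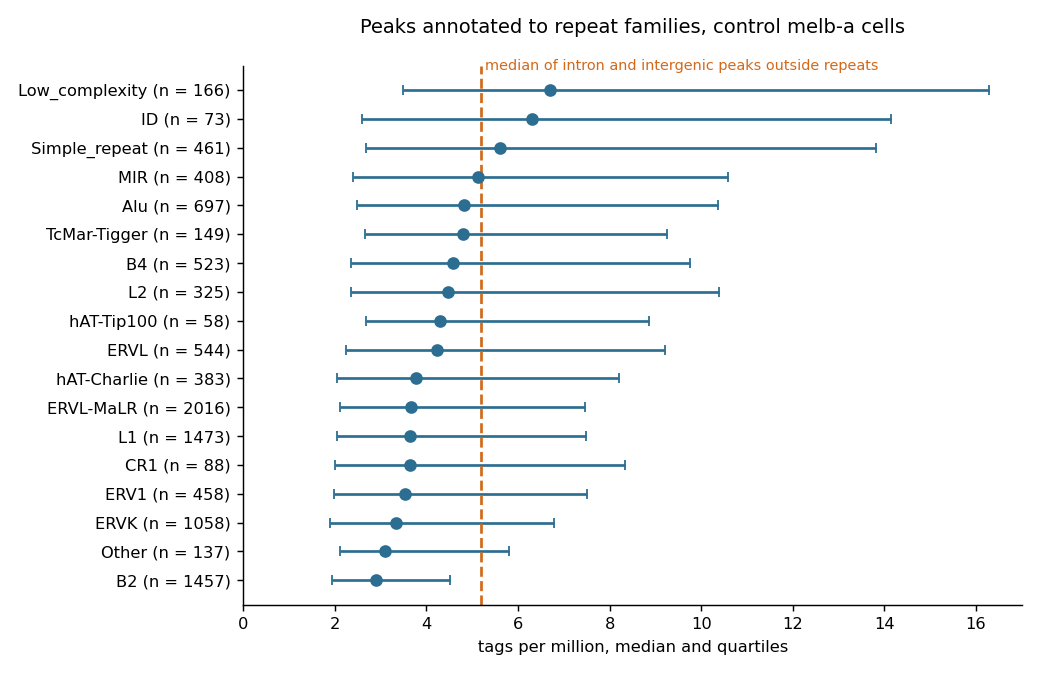
Median CPM of control peaks in 18 repeat families with at least 50 peaks, with quartiles as bars and the number of peaks in parentheses. The dashed line is the median of intron and intergenic peaks outside repeats and CpG islands, 5.18 CPM; low complexity, ID and simple repeats lie above it, and B2 is lowest at 2.90 CPM.

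Single repeat peaks were highly open all the same. The most open was annotated to a B1_Mm copy 6.30 kb upstream of Arl4d (chr11:101657945-101660542), with 189 and 185 CPM. It was followed by a U4 copy near Sirt4 (184 and 186 CPM), another B1_Mm copy near Kif2c (169 and 163 CPM), a C-rich stretch near Irf2bp2 (148 and 143 CPM) and an MLT1G1 element near Kcnk16 (145 and 141 CPM). The annotation gives 1 repeat for a peak, and these peaks were 1024 to 2598 bp wide, so the open site can extend beyond the element.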

How the data were processed

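The authors deposited estimated counts of tags for every peak in each of 4 libraries, over a single peak set. Every value is a multiple of 0.5, for a reason not given in the sources used here. Per the submitters' processing notes the tools were MACS2 2.2.9.1, edgeR 3.38.4, Picard, Bowtie2 and cutadapt 2.3 on build mm10, with no role stated. Removal of duplicates and mitochondrial reads, a shift for the transposase and the treatment of reads that map to several places are not given. Annotation classes, repeats and distances to the nearest start site are the authors'.

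CPM is tags divided by the library's tags in peaks, so the share of reads outside peaks is not seen, and the means are over both controls. Total tags were 20716859.5 and 15804532. Peaks within 1 kb of a start site count as start-site peaks and beyond 10 kb as distal. The controls were compared per peak with a two-sided exact binomial test on tags rounded to whole numbers, with at least 20 tags in the pair (scipy 1.17.1). edgeR 4.0.16 (R 4.3.3) gave the TMM factors and the alternative exact test. No p-value was computed across peaks, since peaks are not replicates.

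Peaks were matched to 32851 RefSeq promoter windows of GRCm38.p6, which shares coordinates with mm10, by an overlap of at least 1 base. CpG-rich windows are those of the upper 2 of 5 groups by CpG ratio. The window set held none for Pax3, Sox10, Pmel and other listed genes, among them Erbb3, Mlana, Sox9, Snai2 and Actb. Those genes were matched by assigned peaks alone. Named genes are the 5 markers and other lineage genes, the 12 highest and lowest promoter peaks, the 12 highest distal peaks and sums, the highest and lowest members of each list, and the repeat families at both ends. Some predicted genes were left out, and some members of the rule are given only in ranges or are not reported here. Subfamilies and single repeat peaks were chosen after their values were seen. The members and lists were chosen with earlier results of these data known. Figures were drawn with matplotlib 3.10.9.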

Additional observations from a re-analysis of the deposited data

How the results depend on the processing

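The median promoter peak lay above the median distal peak, and the median repeat peak below its non-repeat counterpart, under every alternative run for these 2 ratios. The promoter to distal ratio of 7.02 was 3.05 per kb of peak, 6.86 with at least 10 tags in each control, 7.17 on autosomes, 6.64 for peaks within 1 kb of a start site, 7.52 against peaks beyond 50 kb, and 6.997 to 7 with a control library left out. The share of tags in promoters (29.2%) was 29.1% on autosomes, 44.1% within 1 kb of a start site, and 29.2% to 29.3% with a library left out. The promoter share of the most open 10% of peaks (44.1%) was 36.9% by CPM per kb, 44.2% with at least 10 tags, 66.2% within 1 kb of a start site, and 44.1% to 44.2% with a library left out. In the most open 1%, an alternative chosen after seeing the data, it was 61.0%. The repeat ratio of 0.778 was 0.907 per kb, 0.724 against all non-repeat intron and intergenic peaks, and 0.783 to 0.785 with a library left out. The chi-square per peak was 0.952 with at least 100 tags in the pair. Doubling tags to whole numbers, which takes each step of 0.5 as a count, made the exact test call 717 peaks in place of 0; without a minimum of tags, with TMM factors and in edgeR's exact test it called 0. By the promoter class alone, chosen after seeing the data, 6 of 11 melanoblast markers had a peak in place of 8. Depth limits the least open sites: 420 peaks had under 10 tags in control 1 and 830 in control 2. No paired analysis was possible because the 2 controls are the whole group described and no other group is compared with them.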

Other observations

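The X chromosome was less open than the autosomes in both peak kinds. Its 214 promoter peaks had a median of 19.5 CPM, against 26.5 to 43.3 CPM on the autosomes, where chromosome 2 was lowest and chromosome 6 highest. Its 688 distal peaks had a median of 3.57 and 3.53 CPM in controls 1 and 2, against 4.15 to 5.07 CPM and 4.05 to 5.03 CPM on the autosomes. Per kb of peak the X promoter median was 18.4 CPM per kb, against 25.7 to 40.5 CPM per kb. Only 2.32% of the 1207 X peaks lay in the most open 10%, against 6.25% to 13.2% on the autosomes, and the Y chromosome had 2 peaks. The sex and copy number of the line are not given in the labels used here, and their part in these values was not tested.

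The ratio of the control libraries was narrower where peaks held more tags. The SD of the log2 ratio of control 1 to control 2 was 0.83 over 525 peaks with under 20 tags in the pair, 0.36 from 20 to 100 tags, 0.21 from 100 to 500 tags and 0.09 above 500 tags.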
